A study of Homo sapiens with 4 samples.

Results

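The 47 genes described here encode the machinery that loads, fires and runs DNA replication origins, from the origin recognition complex to the enzymes that supply deoxynucleotides. They were chosen by gene symbol in all 4 expression tables, and each symbol matched 1 of the 28285 gene rows. Levels were compared between sorted fractions of cells derived from H1, a line of human embryonic stem cells that carried an eGFP reporter knocked into GATA2, a transcription factor gene of blood stem and progenitor cells. GFP-positive cells (eGFP+CD34+CD31+CD43-) were labelled hemogenic endothelium, vessel-lining cells that can give rise to blood, and had 2 libraries. GFP-negative cells (eGFP-CD34+CD31+CD43-) were labelled endothelial cells and also had 2 libraries. All 4 libraries carry the same knockin (written GATA2w/eGFP in the series design) and a title that names Cre without a role, and every source name reads hemogenic endothelium, so the labels differ on the GFP-negative cells. Cells were sorted by the reporter of GATA2 itself, and the labels do not say whether replicates came from separate cultures or how many clones were used, so each p-value covers no more than the spread among these libraries, which may be technical.

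Eukaryotic origins are marked by the origin recognition complex (ORC). In G1, CDC6 and CDT1 load the ring-shaped MCM2-7 helicase onto them, a step that geminin blocks once S phase has begun. The kinases CDC7-DBF4 and CDK2 then recruit CDC45 and GINS to make an active helicase, after which polymerase alpha-primase, the PCNA clamp, its loader RFC, and polymerases delta and epsilon copy the strands. Many of these genes are transcribed at the G1/S boundary through E2F sites, and their RNA levels are therefore commonly read as a sign of cycling cells.

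RefSeq promoters (GRCh38.p14, 250 bases before to 50 bases after an annotated start) were found for 41 of the 47 genes. None was found for MCM4, MCM5, GINS4, RPA2, RPA3 and POLD3. On either strand, TTTCCCGC, TTTGGCGC, TTTCGCGC or TTTGCCGC occurred in 21 of the 41 (51.22%), against 3.99% of 27305 genes in the same table. The comparison was not matched for base composition. These 8-letter strings are what is called an E2F match here, and other forms of the site were not searched. By step, 7 of the 7 licensing genes with a promoter held such a match, against 1 of 6 origin recognition genes. The CCAAT box occurred in 24 of 41 (58.54%, against 39.72% of all genes), and TTTGAA, the CHR element of late cell-cycle genes, in 2 of 41 (4.88%, against 18.17%). The 4 stretches below show where these letters lie in a licensing factor whose libraries separated by fraction (CDT1) and in a helicase subunit, the clamp and a nucleotide enzyme whose libraries overlapped (MCM6, PCNA, TYMS). Each gives the 160 bases that end just before the start, 5′ to 3′ on the gene's strand, and capitals mark E2F matches in either orientation and CCAAT or its complement ATTGG. The coordinates are chr16:88803629-88803788 (plus strand) for CDT1, chr2:135876444-135876603 (minus) for MCM6, chr20:5126623-5126782 (minus) for PCNA and chr18:657493-657652 (plus) for TYMS.
CDT1: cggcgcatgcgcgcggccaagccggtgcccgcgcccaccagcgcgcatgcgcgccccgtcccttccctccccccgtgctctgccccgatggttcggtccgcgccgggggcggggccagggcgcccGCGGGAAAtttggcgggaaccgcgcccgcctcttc
MCM6: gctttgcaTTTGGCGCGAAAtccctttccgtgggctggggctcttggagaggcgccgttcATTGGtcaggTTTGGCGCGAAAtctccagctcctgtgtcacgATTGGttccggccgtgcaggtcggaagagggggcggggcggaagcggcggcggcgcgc
PCNA: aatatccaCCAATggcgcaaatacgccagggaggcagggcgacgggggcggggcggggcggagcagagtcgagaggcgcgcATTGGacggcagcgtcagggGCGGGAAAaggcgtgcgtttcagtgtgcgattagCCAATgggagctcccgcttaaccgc
TYMS: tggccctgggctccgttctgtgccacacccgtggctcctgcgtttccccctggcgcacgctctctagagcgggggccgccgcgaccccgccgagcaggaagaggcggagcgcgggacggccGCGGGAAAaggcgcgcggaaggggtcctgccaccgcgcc
CDT1, PCNA and TYMS each held 1 match of the same letters (GCGGGAAA on the gene's strand), starting at -35, -59 and -39 relative to the start. MCM6 held TTTGGCGCGAAA at -152 and again at -90, and each counts as 2 overlapping matches, TTTGGCGC on the gene's strand and TTTCGCGC on the other. Genes with and without an E2F match overlapped widely in their difference between fractions. Log2 fold changes ran from -0.61 to 0.25 with a match (median -0.10, 21 genes) and from -0.94 to 0.58 without (median 0.15, 20 genes). Both ranges leave out the genes without a promoter, among them MCM5 (-0.71) and GINS4 (-0.998).

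Levels are given as TPM, a unit scaled to the same total in each library, which corrects for gene length and keeps no read depth, so the counting error behind a value is unknown. GATA2 itself, the gene of the reporter, had 302 and 385 TPM in GFP-positive cells, against 80.2 and 87.3 TPM in GFP-negative cells (log2 fold change 2.01; limma adjusted p = 0.0316), the order that the labels give. TPM of the listed rows summed to 996323.6 to 997292.9 per library, and 14730 to 15109 genes reached 1 TPM. Pearson's correlation of log2(TPM + 1) across genes was 0.961 within the GFP-positive and 0.965 within the GFP-negative fraction, against 0.952 to 0.959 between fractions. Endothelial markers were present in both fractions (CLDN5 was listed at 0 in GFP-positive replicate 2). Of 13, 13 (100%) were lower in both GFP-positive libraries than in both GFP-negative ones, against 21.5% of all genes tested. Their summed levels were 4501 and 4772 TPM in GFP-positive libraries, against 7851 and 7326 TPM in GFP-negative libraries. CD34 in this list, and SPN (the gene of CD43) in the blood progenitor list, encode surface markers by which both fractions were sorted. Summed blood progenitor markers (10 genes) stood at 571 and 728 TPM against 270 and 285 TPM, with PTPRC, the gene of CD45, at 0.54 and 1.84 TPM against 2.64 and 0.31 TPM. Of these 10, 7 had a log2 fold change above 0 and 3 below, with LCP1 at 2.82 and 3.88 TPM against 5.68 and 5.6 TPM. Summed erythroid markers (12 genes) stood at 482 and 280 TPM against 80.8 and 68.5 TPM. Summed mesenchymal markers (10 genes) stood at 1867 and 1836 TPM against 984 and 1212 TPM. Of these, 9 had a log2 fold change above 0 and 1 below. The fractions did not overlap for 4 (40%), all higher in GFP-positive cells. Over all genes tested, 22.8% did so in that direction and 44.3% in either. Summed pluripotency markers (8 genes) stood at 576 and 471 TPM against 398 and 394 TPM. Of the pluripotency markers, LIN28A made up most of the sum, and SOX2 was listed at 0 and 0 TPM in GFP-positive libraries, against 0.23 and 0 TPM in GFP-negative libraries. POU5F1 went against the sum, at 0.93 and 0.03 TPM against 9.68 and 5.88 TPM. Among the 5 pluripotency markers that passed the filter, 2 had a log2 fold change above 0 and 3 below. The part of these cell types in any difference below was not tested, and in bulk RNA fewer cycling cells and less RNA per cycling cell cannot be told apart. No row carries the symbol PECAM1, the gene of CD31, so that gene is not analysed here.

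All 47 replication genes were expressed in both fractions, and none differed between them past the threshold. Each was above 1 TPM in every library, so the filter on low values (at least 1 TPM in at least 2 libraries) removed no member. Of the 47, 0 rose and 0 fell in GFP-positive cells at a Benjamini-Hochberg adjusted p of 0.05 in limma, where 0.447% of the 15425 genes tested passed. An unadjusted limma p under 0.05 was reached by 5 of the 47, or 10.6%, against 14.1% of all genes tested. That made 1 gene higher in GFP-positive cells (background 6.69%) and 4 lower (background 7.38%).

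The summed level of the 47 genes was 3582 and 3443 TPM in GFP-positive libraries, against 3611 and 3647 TPM in GFP-negative libraries (exact two-sided permutation p = 0.333, the smallest that 2 libraries against 2 allow). The GFP-positive sums lay below the GFP-negative ones by less than the gap between the GFP-positive replicates. Their log2 fold changes, GFP-positive over GFP-negative on the log2(TPM + 1) scale, ran from -0.998 for GINS4 to 0.58 for ORC2, with a median of -0.06, against 0.02 over all genes tested. Of the 47, 21 were above 0 and 26 below. None had an absolute log2 fold change above 1, which 12.4% of all genes tested did. Among tested genes with a mean at or above that of the least abundant member, it was 699 of 9932. The GFP-positive libraries lay wholly above the GFP-negative libraries for 8 members (17%; background 22.8%) and wholly below for 11 (23.4%; background 21.5%), which makes 40.4% separated in either direction against a background of 44.3%. The difference between fractions was larger than both gaps between replicates for 16 members, or 34%, against 32.8% of all genes. Each of these shares is near or under its background.

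A p that misses the threshold does not show that levels were equal, and the intervals give the sizes left. The 95% interval of limma, not adjusted for the number of genes, lay wholly between log2 fold changes of -1 and 1 for 32 of the 47 (68.1%). Among the 9932 tested genes with a mean at or above that of the least abundant member, POLA1, the share was 55.4%. For those 32 members a doubling or a halving lay outside the interval, and for the other 15 it did not. The plot of differences by step shows the width of each interval.

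**Figure D1:**
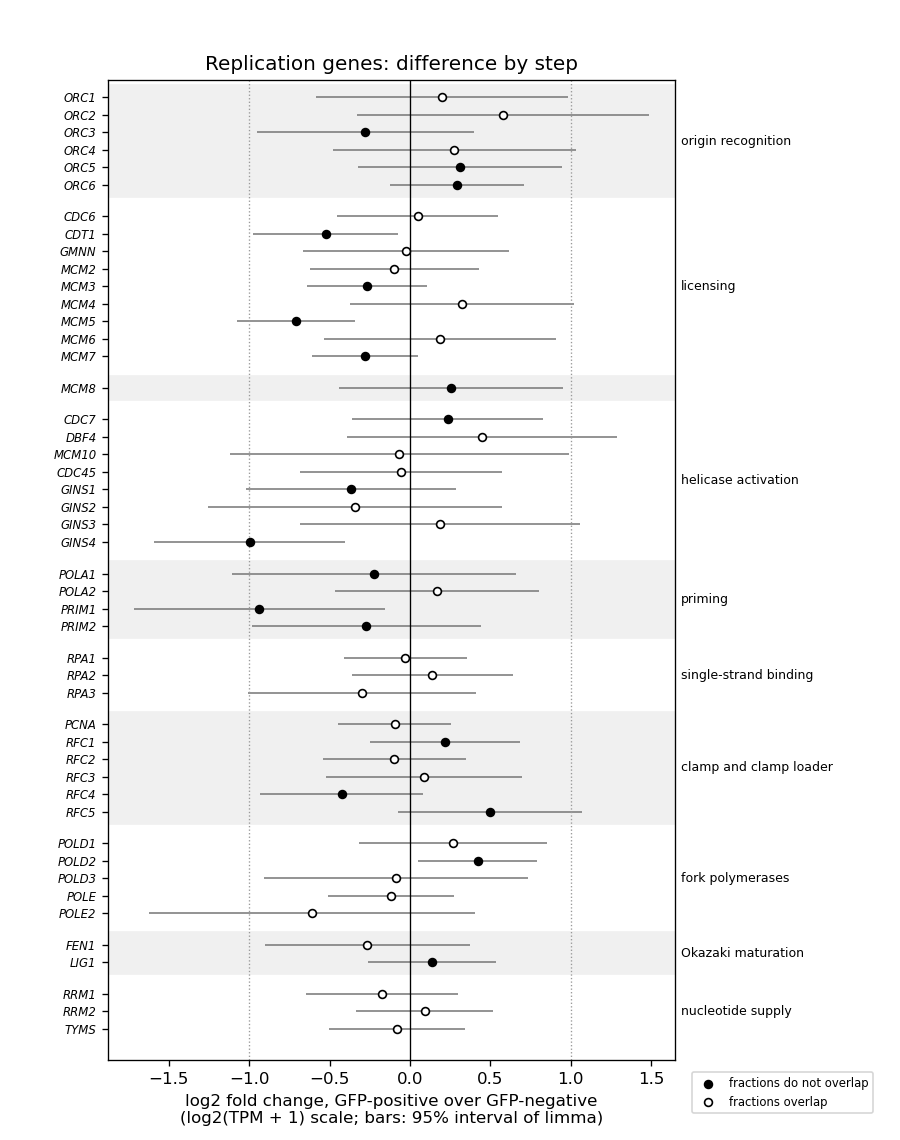
Log2 fold change of each of the 47 replication genes, GFP-positive over GFP-negative (points; log2(TPM + 1) scale), with the 95% interval of limma over all 4 libraries (bars), grouped by step. Filled points are genes whose libraries do not overlap between fractions (8 higher, 11 lower in GFP-positive cells), open points the other 28; dotted lines mark -1 and 1, and MCM5, GINS4, PRIM1 and CDT1 are the genes whose interval lies wholly below 0.

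The 47 genes spanned a wide range of levels. Mean levels over the 4 libraries ran from 10.1 TPM for POLA1, the catalytic subunit of polymerase alpha, to 292 TPM for TYMS, thymidylate synthase. Of the 47, 13 averaged at least 100 TPM and 4 under 20 TPM, and 23 stood in the top quartile (percentile 75 or above) of mean level among the tested genes. TYMS, MCM7, POLD2, MCM4 and MCM5 led the order, with POLA1, POLD3, PRIM2 and ORC1 at its foot. The libraries of TYMS spanned 247 to 321 TPM and those of MCM7 237 to 307 TPM, so these neighbours in the order did not differ beyond their spread.

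**Figure D2:**
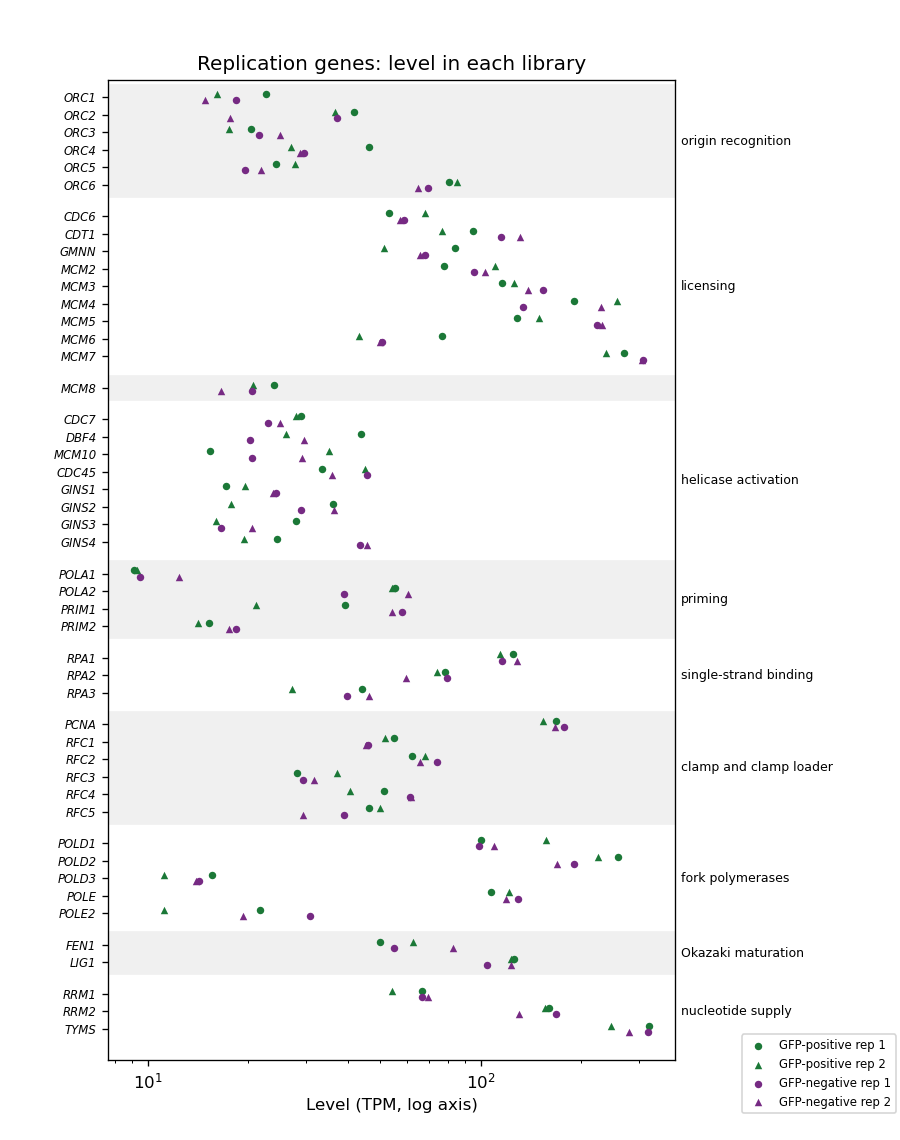
Level in each library (TPM, log axis) of the 47 replication genes, grouped by step; green symbols are the 2 GFP-positive libraries and purple symbols the 2 GFP-negative libraries, circles replicate 1 and triangles replicate 2. Genes span 9.09 to 321 TPM, and for 28 of the 47 the symbols of the fractions interleave.

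Of the 6 ORC subunits, 5 had a log2 fold change above 0, with a median of 0.29. Without GFP-positive replicate 1 the median was 0.15 and ORC1 and ORC4 turned to -0.03 and -0.10, and without GFP-negative replicate 2 the median was 0.16. Summed, ORC1 to ORC6 stood at 236 and 210 TPM in GFP-positive libraries, against 196 and 173 TPM in GFP-negative libraries. The fractions did not overlap in this sum, and the exact two-sided permutation p was 0.333, the smallest possible. ORC6, the most abundant subunit, had 80.4 and 84.7 TPM in GFP-positive cells, against 69.3 and 65.1 TPM in GFP-negative cells (log2 fold change 0.29 ± 0.17, SE; limma adjusted p = 0.509). ORC2, a core subunit, had the largest difference of the complex, at 41.6 and 36.5 TPM against 37.1 and 17.7 TPM (0.58 ± 0.37; limma adjusted p = 0.557). The ORC2 fractions overlapped, and GFP-negative replicate 2 alone was low: the log2 fold change was 0.07 without it and 1.09 without GFP-negative replicate 1. ORC1, the subunit whose level is known to vary with the cell cycle, had 22.7 and 16.2 TPM against 18.5 and 14.9 TPM, with overlapping fractions. ORC4 overlapped as well, and ORC5 was separated at 24.4 and 27.6 TPM against 19.6 and 21.9 TPM. ORC3 was the exception in sign, at 20.4 and 17.6 TPM against 21.5 and 24.9 TPM (log2 fold change -0.28; limma adjusted p = 0.732).

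Licensing genes showed the lowest limma p among the members. MCM5, a helicase subunit (ENSG00000100297; GENCODE v29 on GRCh38, chromosome 22, 35400063 to 35425430, plus strand), had 128 and 150 TPM in GFP-positive cells, against 224 and 231 TPM in GFP-negative cells. Both GFP-positive libraries lay well below both GFP-negative libraries, and the gap exceeded the spread between replicates. Its means were 139 ± 15.0 TPM and 227 ± 4.94 TPM (SD, n = 2 each), a log2 fold change of -0.71 ± 0.15 (SE; 95% interval -1.07 to -0.34). It did not pass over all genes (limma adjusted p = 0.12). CDT1, the loader of the helicase (ENSG00000167513; chromosome 16, 88803213 to 88809258, plus strand), had 95.2 and 76.6 TPM against 115 and 132 TPM. Its log2 fold change was -0.52 ± 0.19 (SE; limma adjusted p = 0.293), with separated fractions.

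The other loading factors did not separate. CDC6, the ATPase that brings CDT1 and MCM2-7 to ORC, had 53.1 and 68.2 TPM in GFP-positive cells, against 58.9 and 57.5 TPM in GFP-negative cells (log2 fold change 0.05; limma adjusted p = 0.954). GMNN, the gene of geminin, which holds CDT1 inactive, had 83.6 and 51.4 TPM against 67.9 and 65.7 TPM (log2 fold change -0.03; limma adjusted p = 0.984). For both genes the GFP-positive replicates lay on either side of the GFP-negative ones. The ratio of CDT1 to GMNN, chosen after the values were seen, was 1.14 and 1.49 in GFP-positive libraries, against 1.70 and 2.01 in GFP-negative libraries (exact two-sided permutation p = 0.333, the smallest possible). Of the other ratios taken, MCM7 to MCM6 and PRIM1 to PRIM2 were also separated and lower in GFP-positive libraries. Those of RRM2 to RRM1 and of DBF4 to CDC7 overlapped.

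The MCM2-7 ring holds 1 copy of each subunit, but the RNA levels were not equal. Of the 6 genes, 3 (50%) were separated between fractions, all lower in GFP-positive cells, against a background of 21.5% for that direction and 44.3% for either. MCM7 was the most abundant, at 269 and 237 TPM in GFP-positive cells, against 307 and 306 TPM in GFP-negative cells (log2 fold change -0.28 ± 0.14, SE; limma adjusted p = 0.423). MCM3 had 116 and 126 TPM against 154 and 139 TPM (-0.27 ± 0.15; limma adjusted p = 0.505). These fractions did not overlap either, although the distances were smaller than for MCM5. MCM2 had 77.7 and 111 TPM against 95.4 and 103 TPM (-0.10; limma adjusted p = 0.902), and MCM4 had 190 and 256 TPM against 134 and 230 TPM (0.33; limma adjusted p = 0.687). MCM6, the least abundant subunit, had 76.4 and 43.2 TPM against 50.7 and 49.98 TPM (0.19; limma adjusted p = 0.852). MCM2, MCM4 and MCM6 overlapped between fractions, and MCM6 varied more between the GFP-positive replicates than between fractions.

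As a share of summed MCM2 to MCM7, MCM5 made up 15% and 16.2% in GFP-positive libraries, against 23.2% and 21.8% in GFP-negative libraries. MCM4 made up 22.2% and 27.7% against 13.9% and 21.7%, the opposite order. The shares of MCM2, MCM3, MCM6 and MCM7 overlapped between fractions. These shares sum to a whole, so a lower one raises the others. The summed level itself was 858 and 923 TPM against 965 and 1059 TPM. Exact two-sided permutation gave p = 0.333, the smallest possible, for the MCM5 share, the MCM4 share and the sum.

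**Figure D3:**
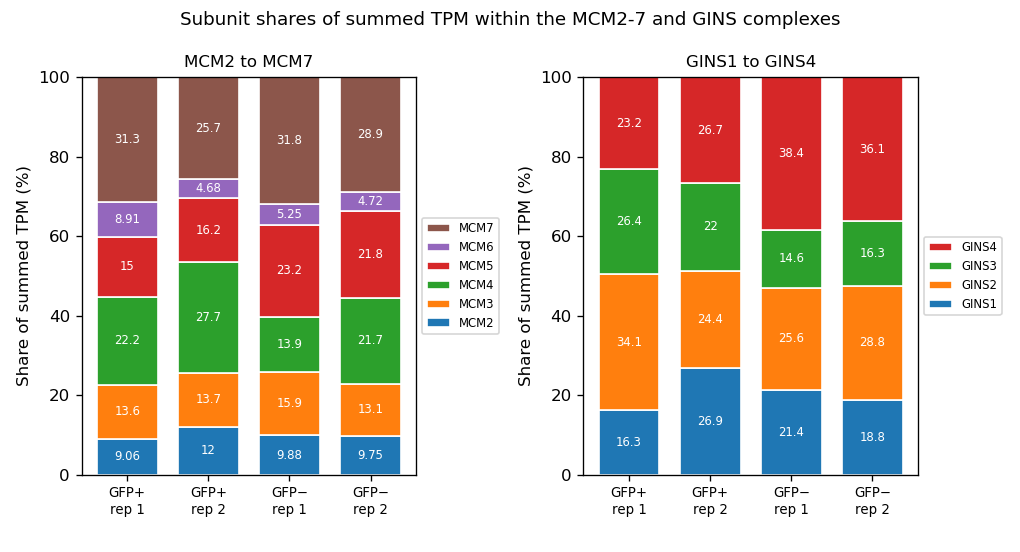
Share of summed TPM (percent) held by each subunit gene in each library, for MCM2 to MCM7 (left) and GINS1 to GINS4 (right), with the 2 GFP-positive libraries left of the 2 GFP-negative libraries in each panel. MCM5 holds 15% and 16.2% in GFP-positive libraries against 23.2% and 21.8% in GFP-negative libraries, and GINS4 holds 23.2% and 26.7% against 38.4% and 36.1%.

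Among the 8 helicase activation genes, GINS4 had the lowest limma p. GINS4, a subunit of the 4-part GINS complex (ENSG00000147536, on chromosome 8), had 24.5 and 19.4 TPM in GFP-positive cells, against 43.5 and 45.7 TPM in GFP-negative cells. Both GFP-positive libraries lay at roughly the same distance below both GFP-negative ones. The means were 21.97 ± 3.58 TPM and 44.6 ± 1.60 TPM (SD, n = 2 each), a log2 fold change of -0.998 ± 0.24 (SE; 95% interval -1.59 to -0.41). This is the largest absolute log2 fold change among the 47, and it did not pass (limma adjusted p = 0.159). GENCODE v29 lists AC009630.1 and AC009630.2, annotated as antisense genes, with exons that overlap GINS4 on the other strand. Whether the counting used strand is not given in the labels, and without it reads of GINS4 and of these genes cannot be told apart.

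GINS1 separated in the same direction, at 17.2 and 19.6 TPM in GFP-positive cells, against 24.2 and 23.8 TPM in GFP-negative cells (log2 fold change -0.37 ± 0.27, SE; limma adjusted p = 0.613). GINS2, at 36.1 and 17.8 TPM against 28.99 and 36.4 TPM, and GINS3, at 27.9 and 16.03 TPM against 16.6 and 20.6 TPM, overlapped. For both, GFP-positive replicate 2 lay far below replicate 1. Leaving out GFP-positive replicate 2 turned GINS2 to a log2 fold change of 0.15, while leaving out GFP-positive replicate 1 turned GINS3 to -0.19. As a share of the summed GINS genes, GINS4 made up 23.2% and 26.7% in GFP-positive libraries, against 38.4% and 36.1% in GFP-negative libraries. GINS3 made up 26.4% and 22% against 14.6% and 16.3%.

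Of the remaining activation genes, CDC7 was separated, and CDC45, DBF4 and MCM10 overlapped. CDC45, the third part of the active helicase, was the most abundant of the 8, at 33.4 and 45.0 TPM in GFP-positive cells, against 45.6 and 35.7 TPM in GFP-negative cells (log2 fold change -0.06; limma adjusted p = 0.956). CDC7, the kinase that fires origins, had 28.9 and 28.0 TPM against 23.0 and 25.03 TPM, a log2 fold change of 0.23 ± 0.24 that was larger than both gaps between replicates (SE; limma adjusted p = 0.746). Its regulatory subunit DBF4 had 43.6 and 26.1 TPM against 20.3 and 29.5 TPM. MCM10, a factor needed for helicase activation, had 15.4 and 35.0 TPM against 20.6 and 29.03 TPM, the widest gap between replicates of any member in either fraction. MCM8, a helicase related to MCM2-7 that acts in recombination repair, had 23.9 and 20.7 TPM against 20.6 and 16.6 TPM (0.25; limma adjusted p = 0.768). The MCM8 fractions were separated, but the difference was smaller than the gap between GFP-negative replicates (0.30).

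In polymerase alpha-primase, which lays down the RNA-DNA primer, PRIM1 differed most. PRIM1, the catalytic primase subunit (ENSG00000198056; minus strand of chromosome 12, 56731596 to 56752373 in GRCh38), had 39.0 and 21.1 TPM in GFP-positive cells, against 58.0 and 54.1 TPM in GFP-negative cells. Both GFP-positive libraries lay below, but they also lay far apart. PRIM1 had a difference of -0.94 ± 0.32 on the log2 scale (SE; 95% interval -1.72 to -0.16; limma adjusted p = 0.278). With GFP-positive replicate 2 left out this became -0.51, and with GFP-positive replicate 1 left out, -1.36. PRIM1 shares exon sequence with NACA and HSD17B6 in GENCODE v29, so its level is uncertain to that extent. The other subunits were closer: PRIM2, the regulatory primase subunit, had 15.3 and 14.2 TPM against 18.4 and 17.6 TPM (-0.27; limma adjusted p = 0.757). POLA1 had 9.09 and 9.27 TPM against 9.5 and 12.5 TPM (-0.22; limma adjusted p = 0.859). POLA2, the accessory subunit, had 55.2 and 54.3 TPM against 38.9 and 60.7 TPM, overlapping. Priming genes were separated for 3 of 4 members (75%), all lower in GFP-positive cells, against a background of 21.5% for that direction and 44.3% for either. The difference was larger than both gaps between replicates for 2 of the 4. POLA1, whose nearest libraries stood at 9.27 and 9.5 TPM, was not among them.

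Single-strand binding genes, whose product RPA coats the opened template, overlapped between fractions in 3 of 3 cases. Over all genes tested, 44.3% did not overlap. RPA1, the large subunit, had 125 and 114 TPM in GFP-positive cells, against 116 and 128 TPM in GFP-negative cells (log2 fold change -0.03 ± 0.16, SE; 95% interval -0.41 to 0.35). RPA3, the small subunit, had 44.1 and 27.2 TPM against 39.7 and 46.1 TPM (-0.30; limma adjusted p = 0.725). RPA2 had 78.1 and 73.9 TPM against 79.3 and 59.7 TPM.

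PCNA, the sliding clamp and a common marker of proliferating cells, had 169 and 154 TPM in GFP-positive cells, against 178 and 167 TPM in GFP-negative cells. The fractions overlapped, with means of 161 ± 10.7 TPM and 172 ± 7.88 TPM (SD, n = 2 each). Its difference of -0.10 ± 0.14 on the log2 scale (SE; limma adjusted p = 0.847) had a 95% interval of -0.45 to 0.26, and of the 47 only MCM7 had a narrower one. The clamp loader genes went both ways. RFC5, a small subunit, had 46.2 and 49.9 TPM against 38.8 and 29.3 TPM (0.50 ± 0.24; limma adjusted p = 0.415), the largest difference of this step. RFC4, another small subunit, had 51.4 and 40.5 TPM against 61.2 and 62.0 TPM (-0.43 ± 0.21; limma adjusted p = 0.429). RFC1, the large subunit, had 54.8 and 51.6 TPM against 46.0 and 45.1 TPM. RFC1, RFC4 and RFC5 were separated, whereas RFC2 and RFC3 overlapped. With PCNA, that made 3 of the 6 genes of this step separated (50%; background 44.3%). Summed RFC1 to RFC5 came to 243 and 247 TPM against 249 and 234 TPM.

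Fork polymerases held the single member with an unadjusted limma p under 0.05 in the upward direction. POLD2, an accessory subunit of polymerase delta and the most abundant gene of this step, had 259 and 225 TPM in GFP-positive cells, against 191 and 169 TPM in GFP-negative cells. The fractions were separated, with a log2 fold change of 0.42 ± 0.15 (SE; 95% interval 0.05 to 0.79; limma adjusted p = 0.3). POLD1, the catalytic subunit of the same enzyme, had 101 and 157 TPM against 99.0 and 110 TPM and overlapped. POLD3 had 15.6 and 11.2 TPM against 14.3 and 13.9 TPM. POLE, the catalytic subunit of polymerase epsilon, had 107 and 122 TPM against 129 and 120 TPM (-0.12; limma adjusted p = 0.823). Its accessory subunit POLE2 had the largest difference of the step, at 21.8 and 11.2 TPM against 30.8 and 19.3 TPM (-0.61 ± 0.42; limma adjusted p = 0.588), with fractions that overlapped. POLE2 turned to -0.16 when GFP-positive replicate 2 was left out, -1.06 when GFP-positive replicate 1 was, and -0.29 when GFP-negative replicate 1 was. In the first and last of these cases POLD2, at 0.52 and 0.51, had the largest difference of the step. Summed, the 5 genes stood at 504 and 527 TPM against 465 and 432 TPM, with no overlap (exact two-sided permutation p = 0.333, the smallest possible).

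Okazaki fragment genes gave small differences. FEN1, the flap nuclease, had 49.95 and 62.7 TPM in GFP-positive cells, against 54.9 and 82.8 TPM in GFP-negative cells (log2 fold change -0.26 ± 0.26, SE; limma adjusted p = 0.728). LIG1, the ligase that seals the fragments, had 126 and 124 TPM against 104 and 123 TPM (0.14 ± 0.16; limma adjusted p = 0.782). FEN1 overlapped, and LIG1 was separated by less than 1 TPM between its nearest libraries.

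Nucleotide supply genes overlapped between fractions in 3 of 3 cases (44.3% of all genes tested did not overlap). TYMS, which makes thymidylate, had 321 and 247 TPM in GFP-positive cells, against 319 and 279 TPM in GFP-negative cells (log2 fold change -0.08 ± 0.17, SE; limma adjusted p = 0.897). RRM2, the S-phase subunit of ribonucleotide reductase, had 161 and 156 TPM against 169 and 131 TPM (0.09 ± 0.17; limma adjusted p = 0.888). RRM1, the large subunit, had 66.6 and 54.3 TPM against 66.5 and 69.6 TPM (-0.17; limma adjusted p = 0.766). All 3 had 95% intervals within -1 and 1.

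Replicates differed more in GFP-positive than in GFP-negative cells for these genes. The median absolute log2 gap between replicates was 0.29 in GFP-positive and 0.15 in GFP-negative libraries, against 0.36 and 0.31 over all genes tested. Among the 9932 tested genes with a mean at or above that of POLA1, the gaps were 0.28 and 0.245. GFP-positive replicate 1 lay above replicate 2 for 30 of the 47, and GFP-negative replicate 1 above replicate 2 for 25. The widest gaps fell in helicase activation (median 0.57 in GFP-positive cells) and the narrowest in priming (0.06 in GFP-positive cells), although PRIM1 itself was far apart.

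Of 31 further replication genes, which act in checkpoint, fork protection, origin firing, chromatin assembly and nucleotide metabolism, 0 rose and 0 fell, and 2 (6.45%) had an unadjusted limma p under 0.05, against 14.1% of all genes tested. Their median log2 fold change was -0.02, with 15 above 0 and 16 below. The largest difference was that of DTL, the substrate receptor of the ubiquitin ligase that removes CDT1 in S phase, at 23.2 and 13.6 TPM in GFP-positive cells, against 29.9 and 39.5 TPM in GFP-negative cells (-0.91 ± 0.34, SE; limma adjusted p = 0.319). The fractions did not overlap. Of 19 E2F, RB and G1/S kinase genes, 0 rose and 0 fell, and 1 (5.26%, against 14.1% of all genes) had an unadjusted limma p under 0.05. Their median was 0.12 with 10 above 0, but it turned to -0.12 with 8 above 0 without GFP-positive replicate 1, and to -0.01 with 9 above 0 without GFP-negative replicate 1. In that list E2F8, a repressor of the E2F family, differed most, at 9.08 and 8.19 TPM against 4.01 and 4.71 TPM (0.85 ± 0.41; limma adjusted p = 0.418).

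Mitotic markers lay on one side of 0. Of 22 markers of G2 and mitosis, 22 had a log2 fold change above 0, with a median of 0.45 and values from 0.25 to 0.75, but 0 rose and 0 fell at the threshold, and 4 (18.2%, all higher; background 6.69%) had an unadjusted limma p under 0.05. The fractions did not overlap for 13 of the 22 (59.1%, all higher in GFP-positive cells; background 22.8%). KIF23, a kinesin of the midbody, differed most, at 61.5 and 45.5 TPM in GFP-positive cells, against 32.99 and 29.3 TPM in GFP-negative cells (0.75 ± 0.24, SE; limma adjusted p = 0.256). These markers also moved with the replicate number: replicate 1 lay above replicate 2 for 22 of the 22 in GFP-positive cells, with a median log2 gap of 0.51, and for 20 of the 22 in GFP-negative cells, with a median gap of 0.29. The gap between GFP-positive replicates was thus as large as the difference between fractions, and the list's median became 0.22 when GFP-positive replicate 1 was left out and 0.68 when replicate 2 was. Leaving out GFP-negative replicates gave 0.60 and 0.24. The difference between the mitotic and the replication list was not tested.

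**Figure D4:**
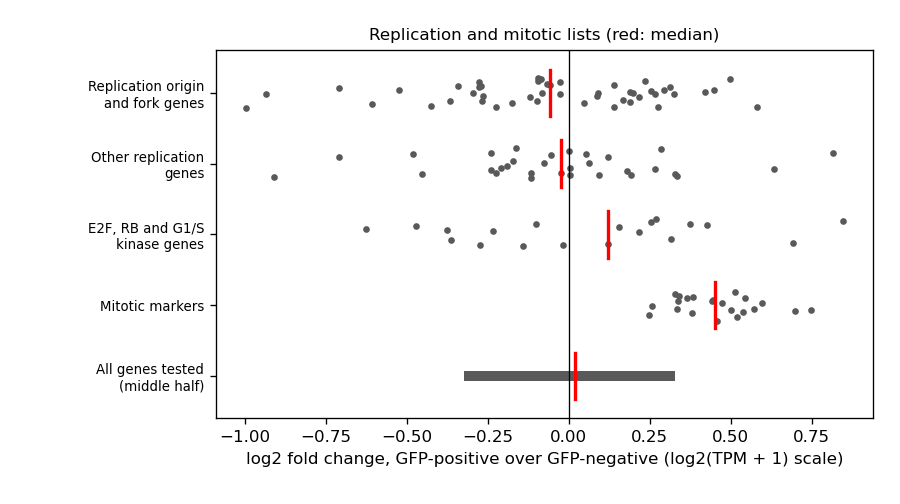
Log2 fold change, GFP-positive over GFP-negative, of each gene (points) in the replication origin and fork genes and the other cell-cycle lists, with each list's median in red, and the range between the quartiles of all 15425 genes tested as a bar. The 22 mitotic markers lie at 0.25 to 0.75 (median 0.45), whereas the 47 replication genes lie on both sides of 0 (median -0.06).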

How the data were processed

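RNA libraries from 2 GFP-positive and 2 GFP-negative samples were compared, with groups and replicate numbers from the sample titles. Per the labels' protocols, RNA was taken with Trizol and libraries were made with an Illumina TruSeq RNA kit. The authors deposited 1 table per library with an Ensembl identifier, a symbol and a value taken here as TPM, since the values of each library sum to 996323.6 to 997292.9 and the submitters' processing notes name RSEM (with Bowtie, and the builds hg19 and mm10 without roles). The sources used here give no versions, annotation or strand setting.

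Members and lists were chosen with earlier results of these data known. Limma 3.58.1 (R 4.3.3) was fitted to log2(TPM + 1) with a variance trend. The fit covered the 15425 genes that reached 1 TPM in 2 or more libraries. It was checked on simulated data in which 200 genes were made to differ between fractions. These were drawn from genes above a minimum level, in a single draw per size of difference, with noise of the variances that limma had fitted. With a simulated log2 difference of 1, limma recovered 54 of the 200 (27%) and made 62 calls in all. With a difference of 2, it recovered 173 (86.5%) and made 193 calls. In both cases the calls beyond those recovered fell on genes that had not been changed. Most differences of 1 were thus missed, so a lack of calls says little about differences of that size or smaller. The pseudocount of 1 shrinks the fold changes of low genes. Two-sided p-values were adjusted by the Benjamini-Hochberg method over all genes, with 0.05 as the threshold. Rows that repeat a symbol (87) stayed in the fit, and no member was among them. In GENCODE v29, 20 of the 47 members share exon sequence with another gene on either strand. Besides GINS4 and PRIM1, they include MCM7 (with AP4M1), RFC4 (EIF4A2), RFC5 (WSB2) and TYMS (ENOSF1), whose levels carry the same limit. Values in every library were given for any member past the threshold, for the largest and the most abundant member of each step and for MCM2 to MCM7, CDC6, CDT1, GMNN, PCNA, RRM2 and TYMS; the values of other members were added after they had been seen. Alternatives covered the pseudocount (0.1), the filter (none, or a mean above 5 TPM), the variance trend, upper quartile and median of ratios scaling, the replicate number and each library left out.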

Additional observations from a re-analysis of the deposited data

How the results depend on the processing

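In 10 of 11 alternatives 0 of the 47 replication genes were called by limma. The exception was the replicate block, which called 1 member, MCM5 (adjusted p = 0.0319; -0.71 on the log2 scale), and 596 genes overall. The main fit was planned without the block, and the labels do not say that replicate numbers mark shared cultures. Deviations of same-numbered libraries correlated at 0.0719 across all genes tested (Pearson), a value that does not speak to a single list. In the mitotic list replicate 1 lay above replicate 2 for 22 of 22 genes in GFP-positive and 20 of 22 in GFP-negative cells. Whether same-numbered libraries belong together was not tested. Over all genes, where 69 were called, limma called 0 with a pseudocount of 0.1, 0 without a filter and 0 without a variance trend (2101, 2230 and 2072 at an unadjusted p under 0.05), and 164 with a mean above 5 TPM. With a library left out it called 18 to 65, the fewest without GFP-negative replicate 1. The members' median log2 fold change ran from -0.0902 to 0.0328 with a library left out, and was above 0 only without GFP-positive replicate 2. MCM5 and GINS4 kept an unadjusted p under 0.05 in all 11 alternatives, CDT1 and POLD2 in 8, PRIM1 in 7. Of the 47, 26 kept their sign in all 11 (10 higher, 16 lower). The sign changes, for up to 9 genes at a time, came only with a library left out. TPM keeps no read depth, and 2 libraries per fraction limit what can be called.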

Other observations

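TIPIN, a fork protection gene among the further replication genes, was picked out here on account of its level. It was listed at 2183 and 2085 TPM in GFP-positive cells, against 2066 and 2191 TPM in GFP-negative cells. Its partner in the same complex, TIMELESS, stood at 80.8 and 78.1 TPM against 88.1 and 71.5 TPM. TIPIN was thus far above every one of the 47 replication genes, and what lies behind this level was not tested.

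RRM2B, the ribonucleotide reductase subunit used outside S phase and likewise chosen after its values were seen, had 27.5 and 22.4 TPM in GFP-positive cells, against 13.2 and 14.2 TPM in GFP-negative cells. Its fractions did not overlap, and its log2 fold change of 0.82 ± 0.29 (SE) did not pass (limma adjusted p = 0.293). RRM2, its S-phase counterpart, overlapped between the fractions.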
